A study of Rattus norvegicus with 12 samples.

Results

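The NMDA receptor subunits are the 7 rat genes Grin1, Grin2a, Grin2b, Grin2c, Grin2d, Grin3a and Grin3b, and all 7 of 7 were found among the 15154 genes that could be named on the array. They were chosen by gene identity alone, through the RefSeq accession of each probe, and hold 9 of the 30367 probes. Grin1 and Grin3a have 2 probes each, and the other 5 genes have 1. A gene is represented by its probe with the highest mean signal, and the second probes of Grin1 and Grin3a are given as a check. All 9 probes were well above background on all 12 arrays, and none was saturated. The study itself had picked Grin1, Grin2a and Grin2b for follow-up from these same arrays, so their direction is not independent evidence. It also measured Grin1, Grin2a, Grin2b, Grin3a and Grin3b by quantitative PCR. Its results differ from the arrays in the direction of Grin3a and in the timing of Grin2a, as given below.

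Primary hippocampal neurons from E18 Wistar rat embryos were grown for 14 to 15 days and then were exposed to OGD (oxygen-glucose deprivation, which models ischemia in a dish) or to a control incubation. For OGD, cultures were kept for 2 h in a glucose-free saline with sucrose inside an anaerobic chamber. Control cultures stayed for the same time in that saline with 25 mM glucose, in an ordinary incubator. All cultures then went back to conditioned medium, and total RNA was collected after 7 h or 24 h of recovery. There were 4 groups (control and OGD at 7 h, control and OGD at 24 h) of 3 independent cultures, each hybridized to 1 one-color Agilent array, on which brightness reports labeled RNA bound to a probe. The cultures are mixed: neurons predominate and some glia remain.

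NMDA receptors are glutamate-gated cation channels that are highly permeable to calcium. Each receptor combines the obligatory GluN1 subunit (Grin1), which binds glycine or D-serine, with GluN2 subunits (Grin2a to Grin2d), which bind glutamate and set the kinetics and the magnesium block, or with GluN3 subunits (Grin3a and Grin3b), which lower calcium permeability. In hippocampal pyramidal neurons GluN2A and GluN2B predominate, and overactivation of the receptor during ischemia lets in the calcium that drives excitotoxic death.

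Signals are given as log2 intensity minus the median of the array, so that 0 is the median probe of that array and a difference of 1 is a 2-fold change. This scale compares a probe across arrays but not one probe with another. OGD was compared with control by limma, an empirical Bayes linear model fitted to all probes, at each recovery time. As in the methods of the study, a probe was called when its unadjusted p was under 0.05 and its fold at least 2. The lowest Benjamini-Hochberg adjusted p of any of the 30367 probes was 0.117 at 7 h and 0.209 at 24 h, so no probe had an adjusted p under 0.05, and every call below rests on an unadjusted p. An exact permutation test of 3 against 3 arrays cannot go below 0.1. The median spot intensity was 402 to 660 on control arrays and 131 to 546 on OGD arrays, and 78.3% to 87.1% of spots were well above background. The OGD replicate 1 array was the dimmest of its group at both times. Over all probes, the 24 h OGD array of replicate 1 correlated with replicates 2 and 3 at r = 0.968 and 0.957, whereas those correlated with each other at 0.989. Every slide carried a control and an OGD array with the same replicate number and recovery time, while all 7 h slides were scanned on 1 day and all 24 h slides on another. The 2 arrays of a slide were not always scanned together. The 7 h control arrays of replicates 1 and 2 were scanned 211 min, and the 24 h control array of replicate 1 177 min, apart from their OGD array. The part of this gap in the values was not tested. Because of the scan days, a comparison of 24 h with 7 h cannot be told apart from slide and scan day.

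After 24 h of recovery, 3 of the 7 subunit genes were called lower in OGD than in control cultures: Grin1, Grin2a and Grin2b. The share of all probes called lower at this time was 1.96%. Grin2c and Grin3a were also lower at an unadjusted p under 0.05 without reaching 2-fold, which makes 5 of 7 against 6.19% of all probes, and 0 of 7 were higher against 7.51%. For the same 5 genes all OGD arrays lay below all control arrays, as they did for 7.02% of all probes. Grin2d and Grin3b were neither called nor past p. The median log2 fold change of the 7 genes was −0.99, beside 0.010 over all probes. On the slides of replicates 2 and 3 alone, without the dimmest array, 0 of 7 were called and 3 of 7 were lower at p under 0.05, so the size of the 24 h difference rests in part on the replicate 1 slide.

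After 7 h, 0 of 7 genes were called in limma, where 1.66% of all probes were called lower and 2.08% higher. At an unadjusted p under 0.05, 0 of 7 were lower against 7.03% of all probes, and 1 of 7, Grin2d, was higher against 4.79%. The median of the 7 genes was −0.29, beside −0.055 over all probes.

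**Figure D1:**
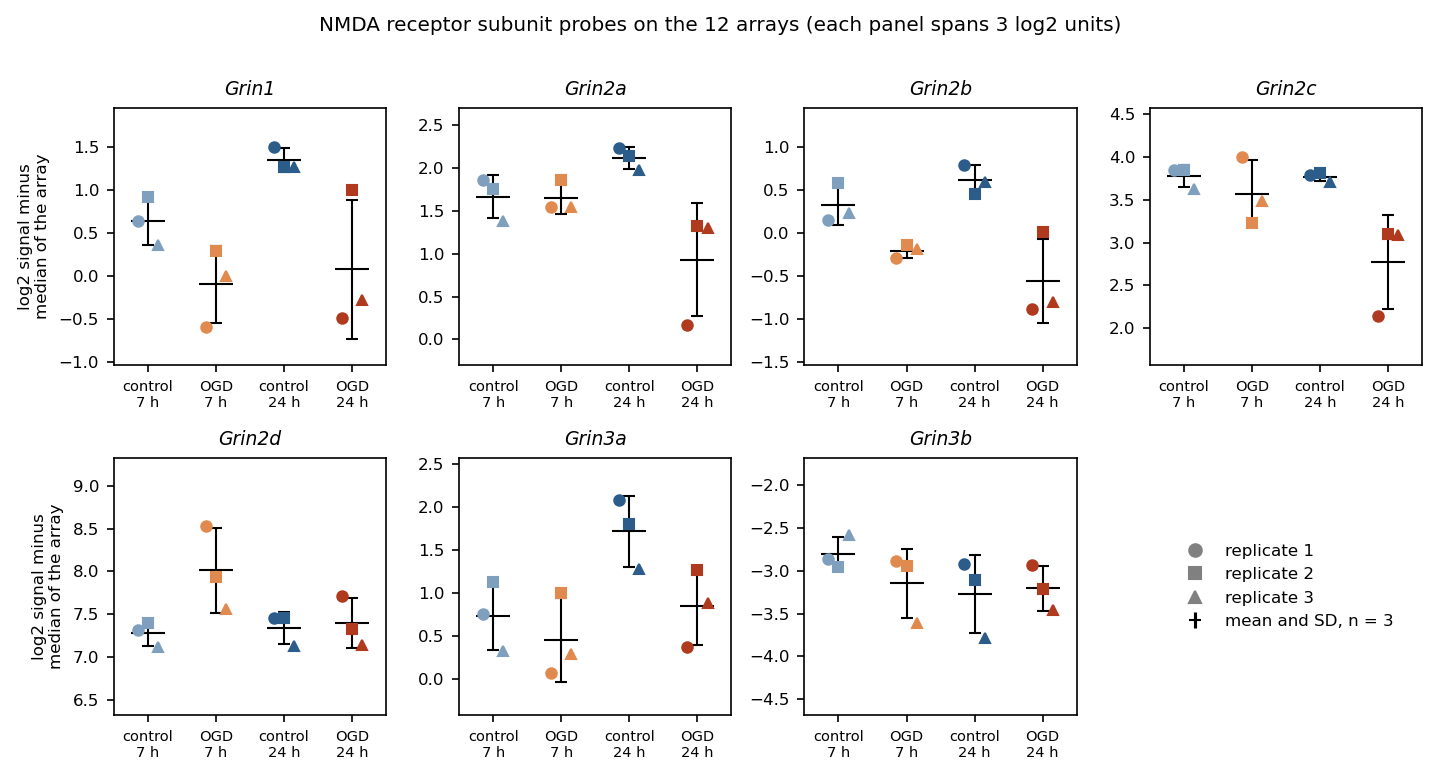
Log2 signal minus the array median (vertical axis) of the representative probe of each subunit gene on the 12 arrays, by group (horizontal axis). Points are arrays, shaped by replicate number, with the group mean and SD (n = 3). At 24 h the 3 OGD arrays lay below all 3 control arrays for Grin1, Grin2a, Grin2b, Grin2c and Grin3a.

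Grin1 encodes the subunit that every NMDA receptor needs. At 24 h its probe read 1.51, 1.27 and 1.27 on the control arrays of replicates 1 to 3, and −0.49, 1.00 and −0.29 on the OGD arrays. The control arrays lay close together, all OGD arrays were below them, and the OGD array of replicate 2 came nearest to them. The means were 1.35 ± 0.14 and 0.073 ± 0.81 (SD, n = 3), a 2.42-fold lower signal after OGD (log2 fold change −1.28, SE 0.37, a limma p of 0.0058, adjusted p = 0.269). This representative probe was not called under the test of the study's methods. With the normexp background correction its log2 fold change of −0.92 was under 2-fold. Neither result speaks for the second Grin1 probe, whose OGD signal at 24 h was 0.39 of control and which limma called lower. The study lists that same fold for Grin1 at 24 h. The result of the second probe under the methods' test is not given here, so the study's own call of Grin1 is not contradicted.

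At 7 h Grin1 read 0.64, 0.92 and 0.36 on the control arrays and −0.59, 0.29 and −0.00081 on the OGD arrays. The groups did not overlap, which held for 15.5% of all probes in this direction at 7 h, and the log2 fold change of −0.74 had a limma p of 0.0718. For the second Grin1 probe the 7 h value was −0.69 and the 24 h value −1.35 (limma p-values of 0.0841 and 0.00357), with overlapping groups at 7 h and separate groups at 24 h. Both Grin1 probes thus had the lower signal on the OGD array of every slide, 3 of 3 at each time.

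The 250 bases upstream of the Grin1 start are shown because Grin1 had the lowest log2 fold change of the 7 genes at 24 h and is the called member with a promoter entry in RefSeq (build GRCr8). The stretch is chr3:28528755-28529004, printed 5′ to 3′ on the minus strand, on which the gene lies, and capitals mark the core of the hypoxia response element, the site of hypoxia-inducible factors.
Grin1 upstream: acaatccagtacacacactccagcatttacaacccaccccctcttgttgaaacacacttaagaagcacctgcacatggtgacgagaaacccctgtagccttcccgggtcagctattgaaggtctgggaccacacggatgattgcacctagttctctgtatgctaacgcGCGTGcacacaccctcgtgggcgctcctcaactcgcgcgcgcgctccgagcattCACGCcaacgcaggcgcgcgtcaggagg

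The motif was searched as ACGTG or GCGTG on either strand, and the Grin1 stretch holds it 2 times, starting at positions −82 and −28 relative to the gene start. It was found in 36.7% of 33469 upstream stretches of this length, so its presence is common. Of the 7 genes, 4 had a promoter entry (Grin1, Grin2c, Grin2d and Grin3a). Grin2d held 2 cores, Grin3a held 1 and Grin2c none in their upstream stretches, which for these 3 genes lie inside the annotated span of the gene. Within 50 bases downstream of its start, Grin1 also held the GC box GGGCGG (either strand, 33.1% of windows of 300 bases that run from 250 before to 50 after the start) and, overlapping it, the GSG element GCGGGGGCG (either strand, 2.73% of windows). The RE1 core, the element bound by the repressor REST, was searched on both strands and was in none of the 4 windows and in 0.0359% of all windows. At so low a rate its absence from 4 windows says little about REST sites of these genes. The study cites earlier work that found REST enriched at the promoters of Grin1, Grin2a and Grin2b. A match is a description of letters and not a bound site.

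Grin2a and Grin2b encode the glutamate-binding GluN2A and GluN2B subunits, and their 24 h differences were of similar size. Grin2a read 2.23, 2.14 and 1.97 on the 24 h control arrays and 0.17, 1.32 and 1.30 on the OGD arrays. The OGD array of replicate 1 was more than 1 log2 unit below the other 2 OGD arrays, and all 3 were below the controls. The means of 2.11 ± 0.13 and 0.93 ± 0.66 (SD, n = 3) correspond to a 2.27-fold lower signal (log2 fold change −1.18, SE 0.29, a limma p of 0.00217, adjusted p = 0.254). Without the OGD 24 h replicate 1 array the log2 fold change was −0.80 (a limma p of 0.0019), which is under 2-fold.

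Grin2b read 0.80, 0.46 and 0.60 on the 24 h control arrays and −0.88, 0.010 and −0.81 on the OGD arrays, again with no overlap. As for Grin1, the OGD array of replicate 2 lay nearest to the controls. The means of 0.62 ± 0.17 and −0.56 ± 0.49 (SD, n = 3) gave a 2.26-fold lower signal (log2 fold change −1.18, SE 0.25), with the lowest limma p of the 7 genes (0.000603, adjusted p = 0.252). With the normexp background correction its log2 fold change of −0.75 was under 2-fold.

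At 7 h neither the GluN2A nor the GluN2B gene was past p. Grin2a read 1.86, 1.75 and 1.38 on control and 1.54, 1.86 and 1.54 on OGD arrays. These overlap completely, and the log2 fold change of −0.019 had a 95% confidence interval from −0.67 to 0.63 (a limma p of 0.949). It was above 0, at 0.094 and 0.076, when arrays were scaled to their 75th percentile or quantile normalized. Grin2b read 0.16, 0.58 and 0.23 on control and −0.29, −0.14 and −0.18 on OGD arrays at 7 h. All OGD arrays were below all control arrays, as for 15.5% of all probes at 7 h, and the log2 fold change was −0.53 with a limma p of 0.0552.

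The change of 1 subunit relative to another within the same array does not depend on a constant added to each array, but it does depend on background correction and quantile normalization. At 7 h the Grin2a signal relative to Grin2b was higher by 0.51 after OGD, on 3 of 3 slides, and relative to Grin1 by 0.72, also on 3 of 3. At 24 h the corresponding values were −0.0060 and 0.092, with overlapping arrays. Grin3a relative to Grin1 was higher by 0.46 at 7 h and 0.40 at 24 h, on 3 of 3 and 2 of 3 slides. For Grin2b relative to Grin1 the values were 0.21 and 0.098, above 0 on 1 of 3 slides at 7 h (0.78 on the replicate 1 slide) and on 2 of 3 at 24 h. After the normexp background correction the 7 h values of Grin2a fell to 0.051 relative to Grin2b and 0.20 relative to Grin1, and that of Grin3a relative to Grin1 to 0.24, whereas with quantile normalization they were 0.62, 0.81 and 0.48. The exact permutation p was 0.1 for the 3 relations at 7 h whose groups did not overlap, which is the smallest that 3 against 3 arrays allow, and 0.267 after adjustment over the 8 tests, so none passed.

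The OGD effect on Grin2a at 24 h was lower than that at 7 h by 1.16 on the log2 scale (SE 0.42, an interaction p in limma of 0.018, adjusted p = 1.00). Grin2a was the 1 gene of 7 with an interaction p under 0.05, where 3.58% of all probes had one. For Grin2b the difference between times was −0.65 (a limma p of 0.0884), for Grin2c −0.78 (a limma p of 0.0721) and for Grin2d −0.68 (a limma p of 0.0891). For Grin1, Grin3a and Grin3b it was −0.53, −0.59 and 0.41, each with a limma p above 0.2. An effect called at 24 h and not at 7 h was therefore shown to differ between times for Grin2a alone, and only before adjustment. With the normexp background correction that difference was −0.71 (a limma p of 0.158) and with spike-in scaling −1.38 (a limma p of 0.384), and no member had an interaction p under 0.05 under either. In the study's quantitative PCR, Grin1 and Grin2b RNA were lower at both times, but Grin2a RNA was lower at 7 h only. It reported GluN2A protein as lower at both times. The Grin2a array values show the other order of times, and the cause of this disagreement was not tested.

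Grin2c encodes GluN2C, a subunit better known from cerebellum and from glia. At 24 h its probe read 3.79, 3.81 and 3.71 on control and 2.15, 3.10 and 3.08 on OGD arrays. The control arrays lay close together, and every OGD array was below them. The log2 fold change of −0.99 (SE 0.28, a limma p of 0.00464, adjusted p = 0.269) is just short of the 2-fold limit, and with the normexp background correction it was −1.26 and called. The values just inside that limit were those of Grin2a and Grin2b, both at −1.18. At 7 h Grin2c read 3.84, 3.85 and 3.63 on control and 3.99, 3.22 and 3.48 on OGD arrays, which overlap, with a log2 fold change of −0.21 (a limma p of 0.472).

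Grin2d encodes GluN2D, a subunit prominent early in development and in interneurons, and it was the 1 gene of 7 with a higher value after OGD at 7 h. It read 7.32, 7.40 and 7.12 on control and 8.54, 7.94 and 7.56 on OGD arrays. All OGD arrays were above all control arrays, as for 10.6% of all probes, and the log2 fold change was 0.73 (SE 0.26, a limma p of 0.0165, adjusted p = 0.325), under 2-fold. Before centring, however, the intensities of the probe overlapped, at 36314 to 47111 units on control and 38240 to 44883 on OGD arrays, and the arrays' own medians were lower after OGD. The value was −0.075 when arrays were scaled to the spike-in probe and 0.11 after the normexp background correction. The 721 probes within 0.5 log2 units of its mean signal had a median of 0.17 at 7 h, and only 3.35% of all probes were brighter. The part of probe brightness and of array scaling in the Grin2d value was not tested. At 24 h it read 7.45, 7.46 and 7.13 on control and 7.71, 7.33 and 7.14 on OGD arrays, with overlapping groups and a log2 fold change of 0.051 (95% confidence interval −0.52 to 0.62).

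Of the GluN3 genes, Grin3a was past p at 24 h and Grin3b was not, and the difference between them was not tested. At 24 h Grin3a read 2.09, 1.80 and 1.27 on control and 0.37, 1.26 and 0.89 on OGD arrays. The groups met but did not overlap, the lowest control being replicate 3 and the highest OGD array replicate 2. The log2 fold change was −0.88 (SE 0.34, a limma p of 0.0259, adjusted p = 0.316), or 1.84-fold lower. Its second probe gave −0.69 with a limma p of 0.0557 and overlapping groups, and without 1 array the p of the first probe reached 0.097. At 7 h Grin3a read 0.76, 1.13 and 0.32 on control and 0.065, 1.00 and 0.28 on OGD arrays, with a log2 fold change of −0.29 (a limma p of 0.418). By quantitative PCR the study reported a marked increase of Grin3a RNA at the later recovery time after OGD, and unaltered Grin3b RNA. The values of both Grin3a array probes at 24 h lie in the opposite direction. The cause of this disagreement over Grin3a was not tested.

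Grin3a was also the 1 gene of 7 whose control cultures differed between times at p under 0.05. Its control signal was higher at 24 h than at 7 h by 0.98 (a limma p of 0.0149, adjusted p = 0.245), where 5.65% of all probes were higher and 9.07% lower at p under 0.05. Its second probe gave 0.63 with a limma p of 0.0735. The mean of the 24 h OGD arrays, 0.84 ± 0.45, was close to that of the 7 h controls, 0.73 ± 0.40 (SD, n = 3). Recovery time, slide and scan day cannot be told apart in this difference.

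Grin3b encodes GluN3B, best known from motor neurons, and had no difference past p at either time. Its intensity was 9.83 to 44.5 units over the 12 arrays, near the lower end of what was measured well above background. At 24 h it read −2.92, −3.11 and −3.79 on control and −2.94, −3.22 and −3.46 on OGD arrays, which overlap, with a log2 fold change of 0.069 (95% confidence interval −0.55 to 0.69). At 7 h it read −2.86, −2.96 and −2.58 on control and −2.89, −2.94 and −3.61 on OGD arrays, and the log2 fold change of −0.34 (a limma p of 0.245) came from the replicate 3 slide (−1.03 there, −0.026 and 0.022 on the others).

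**Figure D2:**
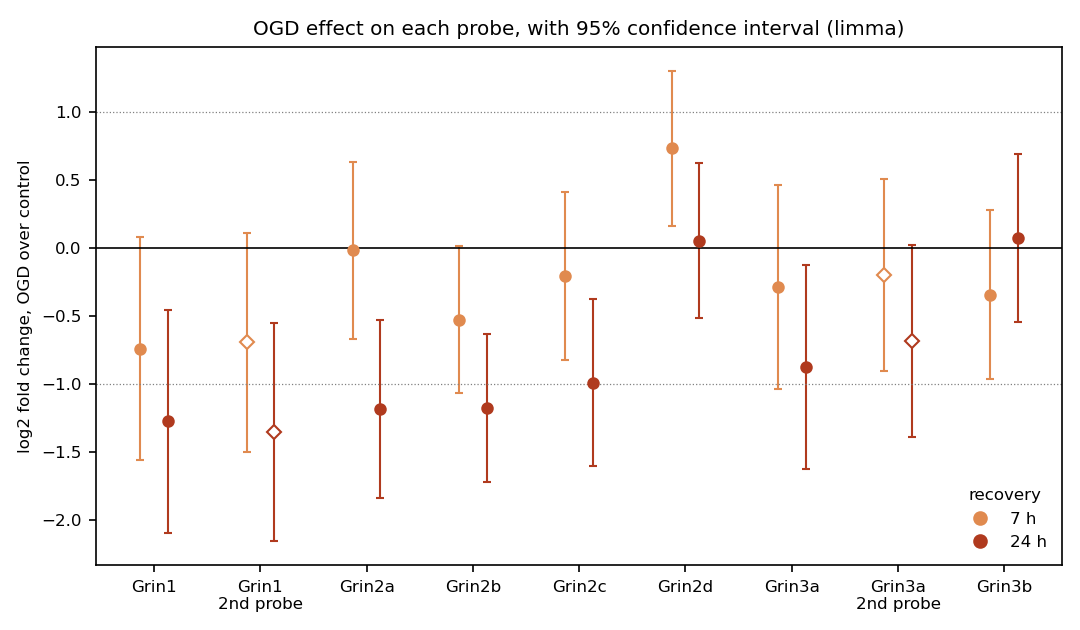
Log2 fold change of OGD over control (vertical axis) for the 9 subunit probes (horizontal axis), with the 95% confidence interval from limma, 3 arrays a group. Filled circles are representative probes, open diamonds second probes, and dotted lines mark 2-fold. At 24 h the intervals of Grin1, Grin2a, Grin2b, Grin2c and the first Grin3a probe lie below 0.

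Across the 4 conditions the highest mean was in 24 h controls for Grin1, Grin2a, Grin2b and Grin3a, while Grin2d was highest in OGD cultures at 7 h, and Grin2c and Grin3b in 7 h controls. The lowest mean was in 24 h OGD cultures for Grin2a, Grin2b and Grin2c, and in 7 h OGD cultures for Grin1 and Grin3a. Between the OGD groups, Grin2a, Grin2c and Grin2d were lower at 24 h than at 7 h by −0.72, −0.79 and −0.62 on the log2 scale, with a limma p of 0.034, 0.0163 and 0.0367 and no adjusted p under 0.1. Of all probes, 7.41% were lower and 9.24% higher in this comparison at p under 0.05. The other neighbours of each order were not shown to differ beyond their spread, apart from the Grin3a controls and the OGD effects above.

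The size of the 24 h difference varied between slides. On the replicate 1 slide Grin1, Grin2a, Grin2b, Grin2c and Grin3a had within-slide differences between −2.06 (Grin2a) and −1.64 (Grin2c), the largest of the 3 slides for each. On the replicate 2 slide the values were −0.27, −0.82, −0.45, −0.71 and −0.54, and on the replicate 3 slide −1.56, −0.67, −1.40, −0.63 and −0.39. Grin1 and Grin2b shared 1 order of the slides, and Grin2a, Grin2c and Grin3a another.

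The way of scaling the arrays changed the sizes more than the directions at 24 h. The log2 fold changes of Grin1, Grin2a, Grin2b, Grin2c and Grin3a were below 0 under all 5 settings of scaling and background correction that were plotted. They lay between −0.92 and −2.30 for Grin1 and between −1.04 and −2.21 for Grin2a. Scaling to the spike-in probe, for RNA meant to be added in a fixed amount, moved the median probe by −0.81 at 7 h and −1.02 at 24 h relative to the median centring. Relative to that shift the subunits kept the values given above, but all 7 genes then had values below 0 at both times. That scaling rests on the 1 of 10 spike-in probes that was measurable on all arrays. The log2 signal of that probe was 5.58 to 6.75 on the 7 h arrays and 9.75 to 12.6 on the 24 h arrays. Both ends of the 24 h range were OGD arrays. Its signal was thus far from constant, and the cause was not tested.

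**Figure D3:**
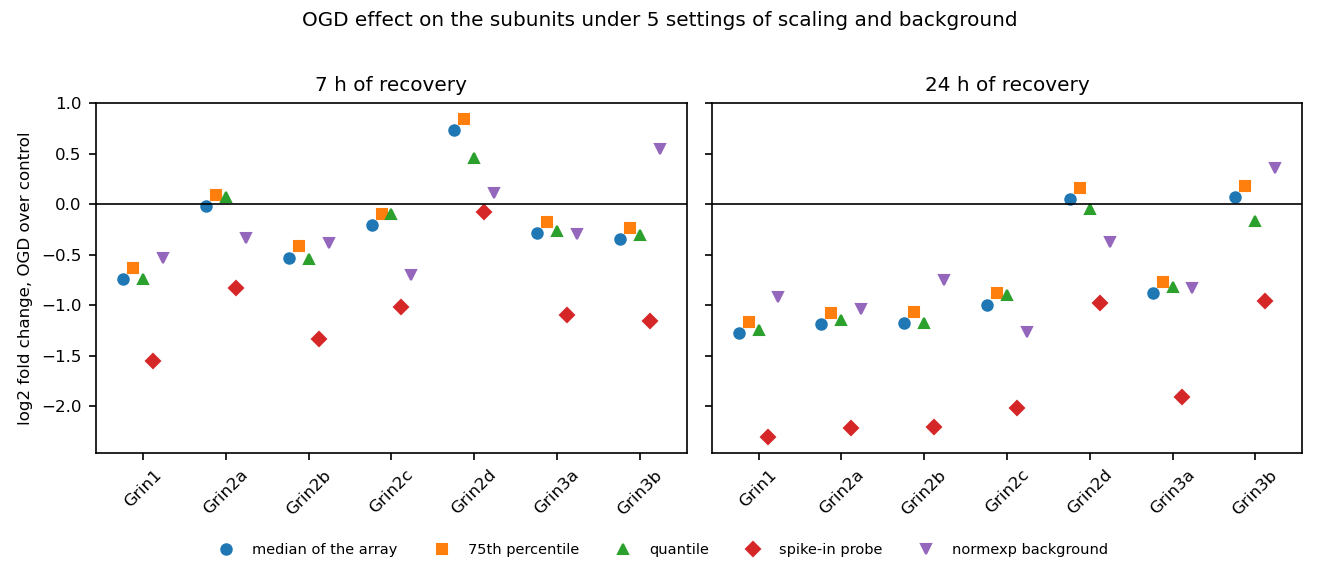
Log2 fold change of OGD over control (vertical axis) for the 7 subunit genes (horizontal axis) at 7 h and 24 h, under 5 settings of scaling and background, each with its own symbol. Grin2d at 7 h runs from −0.075 with the spike-in probe to 0.85 with the 75th percentile, whereas Grin1 stays below 0 in every setting.

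Part of the neuron markers were also lower at 24 h. Of 16 neuron marker genes, all well above background on every control array, 6 were called lower at 24 h (Eno2, Syt1, Syn1, Slc17a7, Gad1 and Gad2) and 9 were lower at p under 0.05, with a median of −0.61. The other 7 of the 16 did not pass p. At 7 h 2 of 16 were called lower (Eno2 and Slc17a7) and 1, Uchl1, whose probe was saturated on 10 of 12 arrays, was higher at p under 0.05. The 7 h median of the list was −0.31. At 24 h the vesicular glutamate transporter gene Slc17a7 had a log2 fold change of −1.53 and the synapsin gene Syn1 of −1.26, whereas the tubulin gene Tubb3 had −0.56 and was not past p. The summed linear signal of the 13 markers saturated on no array was 329 to 532 on 24 h control and 153 to 334 on OGD arrays, which overlap, and 324 to 456 and 280 to 403 at 7 h. Over all 16, with Uchl1, Stmn2 and Gap43, which were saturated on 5 to 10 arrays, the sums were 1232 to 1602 and 868 to 1286 at 24 h and 1061 to 1392 and 1214 to 1509 at 7 h. In RNA from whole cultures, fewer neurons and less RNA of these genes per neuron cannot be told apart, and the part of the neuron markers in the subunit values was not tested.

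Of the astrocyte markers, 0 of 10 were called at either time, but Aldoc, Ndrg2, Slc1a3 and Aqp4 were saturated on 2 to 11 of 12 arrays. The summed signal of the other 6 was 257 to 429 on 24 h control and 180 to 450 on OGD arrays, and 295 to 328 and 291 to 387 at 7 h. Over all 10 the sums were 1301 to 1456 and 1474 to 1555 at 24 h and 1135 to 1342 and 1486 to 1965 at 7 h, without overlap at either time. Of 11 microglia markers, 0 were called at 24 h and 1, Cx3cr1, was called higher at 7 h. The summed microglia signal was 22.8 to 27.2 on 24 h control and 27.3 to 38.4 on OGD arrays, and the leukocyte gene Ptprc was above background on no array. Of 11 oligodendrocyte lineage markers 1 was called lower at 7 h (Cspg4) and 0 at 24 h, with summed signals of 261 to 359 on 24 h control and 300 to 490 on OGD arrays. Of 12 vascular and fibroblast markers 1 was called lower at 7 h (Cldn5) and 1 higher at 24 h (Pdgfrb), with sums of 38.6 to 143 and 132 to 238. The part of these cells in the subunit values was not tested.

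The genes that work with the receptor were grouped into 6 lists of 89 genes, of which 81 had a probe. At 7 h 2 of 81 were called lower and 2 higher, beside 1.66% and 2.08% of all probes. At 24 h 6 of 81 were called lower and 1 higher, beside 1.96% and 3.71%. At p under 0.05 alone, 23 of 81 were lower and 1 higher at 24 h, beside 6.19% and 7.51% of all probes, and 14 and 7 at 7 h, beside 7.03% and 4.79%.

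Scaffold, transport and auxiliary proteins anchor the receptor at the synapse. Of 19 such genes 1 was called lower at each time, Actn2, which encodes the α-actinin that links the receptor to actin (−1.10 at 7 h and −1.20 at 24 h on the log2 scale, with limma p-values of 0.00197 and 0.00107). At 24 h 8 of 19 were lower at p under 0.05, with a list median of −0.68. Among them were the scaffold genes Dlg2 (PSD-93) at −0.81 and Dlg4 (PSD-95) at −0.56. At 7 h the list median was −0.29, and Ephb2, a receptor tyrosine kinase that binds the NMDA receptor, and Dlg3 (SAP102) had −0.73 and −0.83.

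Kinases and phosphatases that act on the receptor had 2 of 16 genes called lower at 24 h. Among them was Ptk2b, which encodes the Src-activating kinase Pyk2 (log2 fold change −1.18, a limma p of 0.00944). Cdk5r1, the p35 activator of Cdk5, and Camk2a, the main postsynaptic calcium/calmodulin kinase, had −0.80 and −0.65 with a limma p of 0.00463 and 0.0188. At 7 h 0 of 16 were called, and Src and Cdk5 had −0.54 and −0.62, while Ptk2b passed p but stayed just under 2-fold.

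Calcium-dependent effectors went both ways at 24 h, with 1 of 18 called in each direction. Capn1, which encodes the calcium-activated protease calpain-1, was higher (log2 fold change 1.36, a limma p of 0.01), and Kalrn, the Rac activator kalirin of dendritic spines, was lower (−1.10, a limma p of 0.0136). Tiam1, another Rac activator, had −0.72 (a limma p of 0.0314). At 7 h 0 of 18 were called. The calmodulin genes Calm2 and Calm3 and the NMDA receptor signaling gene Nsmf had the lowest p there, but their probes were saturated on 10, 6 and 9 of 12 arrays and no fold is given.

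Among genes induced by synaptic NMDA receptor activity the list median was above 0 at 7 h and below 0 at 24 h. At 7 h 2 of 10 were called higher, the stress-response factor gene Atf3 (log2 fold change 1.11, a limma p of 0.00951) and Gadd45g (1.03, a limma p of 0.0344), and the list median was 0.55. At 24 h 2 of 10 were called lower, the activin subunit gene Inhba (−1.21, a limma p of 0.0264) and the immediate early gene Nr4a1 (−1.04, a limma p of 0.0191), and the median was −0.51. Serpinb2 was lower at p under 0.05 at both times (−0.87 and −0.81). Nr4a1 and Inhba were at 0.80 and 0.42 at 7 h, neither past p, and Atf3 and Gadd45g were at 0.61 and 0.74 at 24 h, also not past p. The difference between times was not tested for these genes.

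The supply of the co-agonists glycine and D-serine and of kynurenine ligands had 1 of 10 genes called lower at 7 h and 0 at 24 h. The gene called was Slc6a5, a neuronal glycine transporter (log2 fold change −1.19, a limma p of 0.0364), which was well above background on 10 of 12 arrays. At 24 h the serine racemase gene Srr, the glycine transporter gene Slc6a9 and the neutral amino acid transporter gene Slc1a4 had −0.57, −0.71 and −0.76, all at p under 0.05. At 7 h Slc1a4 had −0.84 and Phgdh, which starts serine synthesis, 0.53.

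Of 8 regulators known to act on Grin genes, 0 were called at either time, but Hdac2 was well above background on 0 arrays and Tbr1 on 1. Rest, the repressor of neuronal genes, had a log2 fold change of 0.68 at both times (SE 0.41, limma p of 0.126 at each). Ehmt2, a histone methyltransferase that works with REST, had −0.69 at 7 h and −0.72 at 24 h (limma p-values of 0.00985 and 0.00746), and the Sp-family factor gene Sp4 had −0.13 at 7 h and, with a limma p of 0.0271, −0.58 at 24 h.

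**Figure D4:**
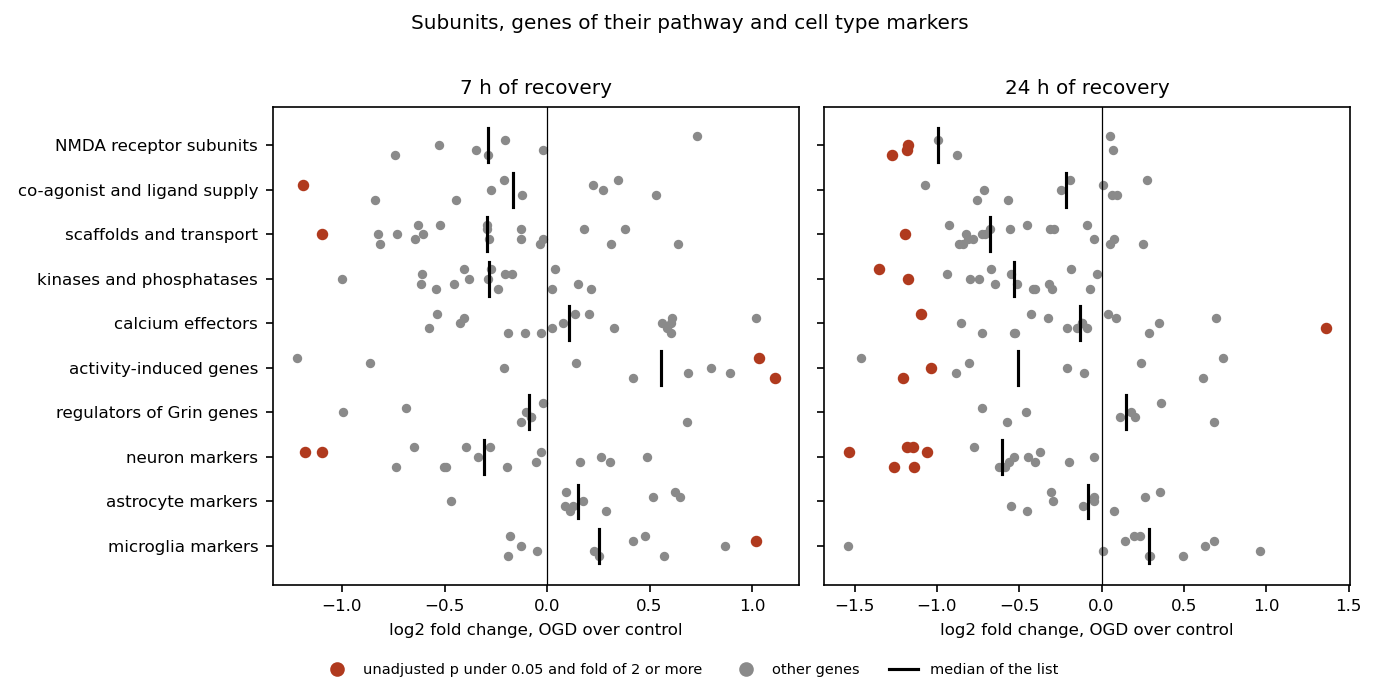
Log2 fold change of OGD over control (horizontal axis) at 7 h and 24 h for the subunits, the lists of genes that work with the receptor and 3 lists of cell type markers. Each point is a gene, colored when its unadjusted p was under 0.05 and its fold at least 2, and bars are list medians. At 24 h the medians of the subunits (−0.99), scaffolds (−0.68) and neuron markers (−0.61) lie left of 0.

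As a description of likeness, each subunit was correlated over the 12 arrays with the 10906 named genes that were well above background on all of them. The arrays share slides and the groups share the OGD effect, so these values carry no test. Grin1 was most like Podxl2 (r = 0.99), followed by Ppp2r5b, Septin5, Palm and Zmym3. Grin2a was most like Slc8a1, the sodium/calcium exchanger gene (r = 0.97), followed by Neurod2, Rbfox1, Sv2b and Kiaa0319.

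Grin2b was most like Cdk5r1 (r = 0.96), and Gal3st3, Clec2l and Gba2 were also among the nearest genes. For Grin2c the first was Cbs (r = 0.93), then F2, Cabp1, Aloxe3 and Myoc. Grin2d was most like Sema6c (r = 0.99), then Taok3, Rufy2, Robo1 and Unc13c, whose log2 fold changes at 7 h were 0.78 to 1.30. Grin3a was most like Pard6a (r = 0.94), then Cntn1, Slc2a6, Ndufab1 and Psmd2, and Grin3b was most like Trim66 (r = 0.85), then Tsga13, Avp, Slc26a4 and Fosl2.

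Among the subunits themselves, the highest correlations over the 12 arrays were those of Grin1 with Grin2b (r = 0.89), Grin1 with Grin3a (r = 0.86) and Grin2a with Grin2c (r = 0.84). Those of Grin2d with Grin1 (r = −0.51) and with Grin3a (r = −0.38) were the lowest, and Grin3b had values between −0.14 and 0.28 with the other 6.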

How the data were processed

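RNA from 12 cultures was measured, 1 array each. The authors labeled 200 ng of RNA with Cy3 and quantified the scans in Feature Extraction 10.5.1.1 of Agilent (protocol GE1_105_Dec08). The deposited intensity values are background-subtracted and not normalized between arrays. Also deposited were log2 values, which the authors centred by the median in BRB-ArrayTools and which equal the log2 intensities plus 1 constant per array within 0.01 for over 99.9% of probes. The array was designed on rat build rn4, and probes were followed by accession.

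Here, outlier spots were dropped, log2 values were averaged per probe, and each array was centred by the median of its 30367 non-control probes. Probes were named through RefSeq (18004 probes, 12363 without a name). The groups were compared in limma 3.58.1 (R 4.3.3), 1 model of 4 groups without a block, with two-sided p-values adjusted over all probes by Benjamini-Hochberg. Relations between subunits used exact permutation tests (scipy 1.17.1). The procedure was tested on simulated data. The members, lists and tests were chosen with earlier results of these data known. Named genes are all 7 members, the 5 genes most correlated with each, and from each list the 3 with the lowest p at each time and Rest. The lists came from general knowledge.

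The alternatives were scaling to the 75th percentile, to quantiles or to the spike-in probe, normexp with an offset of 50 (on the median spot signal, as the files used here hold no mean signal), a filter on dim probes, the deposited log2 values, the methods' t-test, limma on each time alone, the slide as a block, other probes, outlier spots kept, each array left out and, added after seeing the data, the slides of replicates 2 and 3 alone, marker sums without saturated probes, and relations between subunits under quantiles and normexp. The number of arrays limits the precision. Probe sequences and 3 of the 7 promoters were not used here. The values of some genes are not reported here.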

Additional observations from a re-analysis of the deposited data

Results flagged for a closer look

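Before adjustment only, the OGD effect on Grin2a differed between the recovery times: it was lower at 24 h than at 7 h by 1.16 on the log2 scale (difference −1.16, SE 0.42, an interaction p in limma of 0.018, adjusted p = 1.00 over all probes). The within-slide values were −2.06, −0.82 and −0.67 at 24 h and −0.32, 0.10 and 0.16 at 7 h. Leaving out single arrays, the difference ran from −1.36 to −0.79, with a limma p between 0.00976 and 0.0442. With normexp it was −0.71 (a limma p of 0.158) and with spike-in scaling −1.38 (a limma p of 0.384). The study's quantitative PCR gave the other order of times, with Grin2a RNA lower at 7 h only.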

How the results depend on the processing

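With 3 arrays a group, no subunit had an adjusted p under 0.05 in limma under any of these settings, and the calls at 24 h rest on the unadjusted p and the 2-fold limit. Counted on representative probes, the number of members called lower at 24 h was 3, and 2 with the methods' t-test, 2 with normexp (the representative Grin1 probe lost its call under both, Grin2b lost it and Grin2c gained one with normexp) and 0 on the slides of replicates 2 and 3 alone. It ran from 1 to 5 with 1 array left out: 1 without OGD 24 h replicate 1, and 5 without control 24 h replicate 3 or OGD 24 h replicate 2. Those lower at p under 0.05 numbered 5 at 24 h and 3 with the methods' t-test, with spike-in scaling and on the slides of replicates 2 and 3. At 7 h the number lower at p under 0.05 was 0, but 2 with limma on each time alone, 1 with the methods' t-test, 1 with quantile normalization, 1 without dim probes and 0 to 2 with 1 array left out (2 without OGD 24 h replicate 2). The number higher was 1 (Grin2d), and 0 with the methods' t-test, normexp, spike-in scaling and the slides of replicates 2 and 3, and 0 to 1 with 1 array left out (0 without control 7 h replicate 3 or OGD 7 h replicate 1). Members with an interaction p under 0.05 numbered 1, then 2 with 75th percentile or quantile scaling, 0 with normexp or spike-in scaling, and 1 to 4 with 1 array left out (4 without OGD 24 h replicate 2). Of the lists' genes, those called at 7 h (2 lower, 2 higher) became 1 lower with the 75th percentile and 0 lower and 0 higher with the spike-in probe, and at 24 h (6 lower, 1 higher) 3 lower with the 75th percentile and 0 higher with the spike-in probe.

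Some directions turned. Grin2a at 7 h was 0.094 with the 75th percentile, 0.076 with quantiles, 0.13 on the slides of replicates 2 and 3 and −0.16 to 0.077 with 1 array left out. With spike-in scaling Grin2d was −0.075 after 7 h and −0.97 after 24 h. At 24 h it was −0.37 with normexp, −0.042 with quantiles, −0.053 on the slides of replicates 2 and 3 and −0.11 to 0.18 with 1 array left out. Grin3b was 0.55 at 7 h with normexp and at 24 h −0.16 with quantiles, −0.96 with the spike-in probe and −0.19 to 0.25 with 1 array left out, and its difference between times was −0.19 with normexp. The cause of these shifts was not tested.

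Over all probes, the calls at 24 h were 1126 higher and 595 lower, and 1230 and 413 with the 75th percentile, 190 and 553 with normexp, 539 and 95 with the methods' t-test, and 20 and 517 with the spike-in probe. At 7 h they were 631 and 505, and 708 and 349, 2047 and 871, 380 and 428, and 74 and 284.

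The correlation of deviations of same-numbered control and OGD arrays, which share a slide, was −0.05 to 0.11 at 7 h and −0.01 to 0.17 at 24 h. For arrays of unlike number it was −0.08 to 0.07 at 7 h and −0.18 to 0.11 at 24 h. Deviations from means of 3 arrays cannot settle whether the replicate numbers pair the cultures. With the slide as a replicate block the 24 h log2 fold changes were as before and the limma p was 0.0101 for Grin1, 0.00668 for Grin2a and 0.00375 for Grin2b, and 3 members were called. The block changed no other call among the members.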
